A study of Mus musculus with 23 samples.

Results

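The 9 genes described here encode components and regulators of the complement system: C1ra, C1s1, C4b, C2, C3 and Cfb, and the inhibitors Serping1, Cd55 and Cd59a. They were picked by symbol from the 47643 genes of a TPM table of B16F10, a mouse melanoma line of the C57BL/6 strain, and each symbol matched 1 gene. The choice was made with earlier results of these libraries known, in which C4b already stood out in tumors edited with the guide sg495. The comparisons of sg495 with control in tumors and in sorted tumor cells are therefore given for these genes as a description, without a test. Sequenced were whole tumors, called bulk tumors here, melanoma cells sorted out of tumors, and the cells in culture. In each of these 3 sample types, 2 libraries came from control cells of wild-type genotype, 2 from cells transfected with Cas9 protein and sgRNA sg492 against Nr2f6, an orphan nuclear receptor, and 2 from cells transfected with sg495, or 18 libraries in all. Edited cells had been collected by the Cy3 label on the sgRNA, and whether a pool or a clone was then used is not given in the sources used here. Tumors grew in young adult male C57BL/6 mice, and tumor cells were enriched from collagenase-digested tumors by magnetic depletion of stromal cells. Another 5 libraries carried the wild-type genotype with the label IgG_Control (2) or anti-PD1 (3), an antibody against the T cell checkpoint receptor PD-1, and their labels name no sample type. No label ties a library to a particular animal or culture, so p-values measure the spread between these libraries, which may be technical. Expression is given as TPM, the transcript share of a library scaled to the same total, which is corrected for gene length, so that levels of different genes can be set side by side. TPM carry no read total, and the depth behind a single value is unknown here.

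Complement is a cascade of plasma and cell-surface proteins that tags targets, attracts phagocytes and can perforate membranes. In the classical pathway, C1q binds antibody or damaged surfaces and activates the proteases C1r and C1s, which cleave C4 and C2 into the convertase that splits C3. Factor B, the product of Cfb, builds the convertase of the alternative pathway and amplifies C3 cleavage. C1 inhibitor, encoded by Serping1, stops C1r and C1s, while CD55 dissolves convertases on the cell surface and CD59 blocks the membrane attack complex. Most plasma complement comes from the liver, but macrophages, fibroblasts and tumor cells also make components locally, and interferon-γ is a known inducer of several of them.

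C4b, C2 and Cfb lie together in the class III region of the major histocompatibility complex on chromosome 17 (GRCm38, minus strand). C4b spans chr17:34728380-34743882, Cfb spans chr17:34856374-34862518 and C2 spans chr17:34862604-34898265, with 85 bases between Cfb and C2. C3 is on the same chromosome at chr17:57203970-57228136. C1ra (chr6:124512405-124523443, plus strand) and C1s1 (chr6:124530345-124542359, minus strand) face each other 6901 bases apart on chromosome 6. Serping1 (chr2:84765387-84775444) and Cd59a (chr2:104095801-104115354) are on chromosome 2, and Cd55 (chr1:130439027-130462744) is on chromosome 1. Mouse C4 exists as a pair of neighbours, C4b and C4a, the latter encoding sex-limited protein, and their longest annotated transcripts were 96.1% identical over 5367 aligned bases. A coding stretch of C4b in exon 21 of 41 (chr17:34735430-34735489) is shown because a read there can be told apart from C4a, with the 13 bases that differ in capitals.
C4b: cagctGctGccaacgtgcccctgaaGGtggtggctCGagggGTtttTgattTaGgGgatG
C4a: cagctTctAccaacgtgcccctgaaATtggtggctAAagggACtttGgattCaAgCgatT
Of the 5305 possible reads of 75 bases in the C4b transcript, 23.5% also occurred in a C4a transcript and could be assigned to either gene. The share was 40.1% for C1ra with C1rb, 14.7% for C1s1 with C1s2, 9.39% for Cd55 with Cd55b and 1.73% for Cd59a with Cd59b. C2 and Cfb, which are themselves related in sequence, shared no such read. The paralogs had little signal: C4a reached at most 4.61 TPM in any library, C1rb 0.21 TPM, each of the 2 genes named C1s2 at most 0.7 TPM and Cd59b 0.49 TPM, and Cd55b was listed at 0 in all 23 libraries. Values of C4b, C1ra and C1s1 remain uncertain to the extent that shared reads were divided between the copies.

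Promoter sequence from RefSeq (GRCm38.p6, from 250 bases before to 50 bases after a start site) was at hand for 5 of the 9 genes. These were searched on both strands for GAS, the interferon-γ activated site (TTCNNNGAA), the core of ISRE, the interferon-stimulated response element (GAAA, any 2 bases, GAAA), and a kappa B site (GGGA, any 3 bases, TCC). A match of one motif could share bases with a match of another. Across all 32851 promoters of that length, 8.3% held the GAS letters, 3.44% the ISRE core and 4.59% the kappa B letters. C1ra had a single GAS match beginning 33 bases after its RefSeq start (chr6:124512653-124512661, plus strand). That RefSeq start lies inside the gene span given above, not at its end. Cd59a had a single ISRE core match beginning 187 bases before its start (chr2:104095614-104095623, plus strand). These are the only matches found, shown in capitals within chr6:124512643-124512670 and chr2:104095604-104095633.
C1ra: aaatgcttcaTTCCCTGAAacattcctc
Cd59a: tgtttttaaaGAAAGGGAAAatcaagagcc
No match of the 3 motifs was found in the promoters of C1s1, C3 and Cd55, which says only that these letters were not in those windows. C4b, C2, Cfb and Serping1 are named here without a promoter.

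Nr2f6, the targeted gene, was lower in both sg495 libraries than in both controls in each sample type, with 17.22 and 15.76 TPM against 25.83 and 25.24 TPM in bulk tumors. In sorted tumor cells it had 10.6 and 12.18 TPM with sg495, and in cultured cells 18.55 and 22.43 TPM against 31.88 and 32.9 TPM. Its log2 fold change with sg495 was −0.60 (limma adjusted p = 0.0865) in whole tumors, −0.69 (adjusted p = 0.126) after sorting and −0.64 (adjusted p = 0.0213) in culture, the last alone past an adjusted p of 0.05. That call was lost without either control library or without sg495 replicate 1 (adjusted p from 0.0957 to 0.107). With sg492 it was −0.16 in bulk tumors and −0.16 in cultured cells. The sorted libraries labelled sg492 had 19.84 and 25.7 TPM against 20.32 and 17.73 TPM in control, so Nr2f6 RNA was not lower there. The paper checked the knockout by immunoblot and by sequencing the targeted regions, which RNA levels do not show. The sample types were checked against marker genes. Melanocyte genes (Dct, Tyr, Tyrp1, Mlana, Pmel, Sox10, Mitf) summed to between 14840.3 and 17843.9 TPM in all 18 libraries. Summed macrophage markers (Adgre1, Cd68, Lyz2, Mrc1, Cd163) ran from 291.42 to 579.07 TPM in bulk tumors, from 4.14 to 12.68 TPM after sorting and from 2.2 to 6.12 TPM in culture. Summed fibroblast markers (Col1a1, Col1a2, Col3a1, Dcn, Lum, Pdgfra) ran from 333.69 to 947.8 TPM in bulk tumors and stayed at or below 4.23 TPM in sorted and cultured cells.

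The complement genes differed widely in level. C2 led in all 3 sample types, with means over 6 libraries of 87.5 TPM in bulk tumors, 82.1 TPM after sorting and 42.1 TPM in culture. In cultured cells it was followed at a distance by Cd59a (5.75 TPM), C1s1 (2.80 TPM), C1ra (2.80 TPM) and Cfb (2.25 TPM), while C4b averaged 0.07 TPM, C3 averaged 0.0433 TPM, and Serping1 and Cd55 were listed at 0 in all 6 libraries. In sorted tumor cells C4b averaged 16.9 TPM, C1ra 9.71 TPM and C1s1 6.1 TPM. The mean of C4b rested on the sg495 libraries, and by the median of the 6 libraries C4b (7.13 TPM) was below C1ra (7.945 TPM). C3, Serping1 and Cd55 had means of only 0.32, 0.188 and 0.0183 TPM there. In bulk tumors Cfb (38.2 TPM), C4b (33.8 TPM), Serping1 (26.0 TPM), C1ra (18.6 TPM), C3 (15.3 TPM) and C1s1 (13.01 TPM) were all well represented, with Cd59a at 5.47 TPM and Cd55 at 1.79 TPM. The antibody-labelled libraries had another order, led by Cfb at 165.0 TPM and C3 at 71.8 TPM, ahead of C2 at 29.0 TPM. Together the 9 genes made up 31.3% to 48.0% of the summed TPM of a wider complement list in cultured cells, 52.6% to 69.7% in sorted tumor cells, 30.3% to 35.9% in bulk tumors and 4.04% to 10.7% in the antibody-labelled libraries. That list held 53 symbols (55 genes) of recognition molecules, central and terminal components, regulators and receptors.

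**Figure D1:**
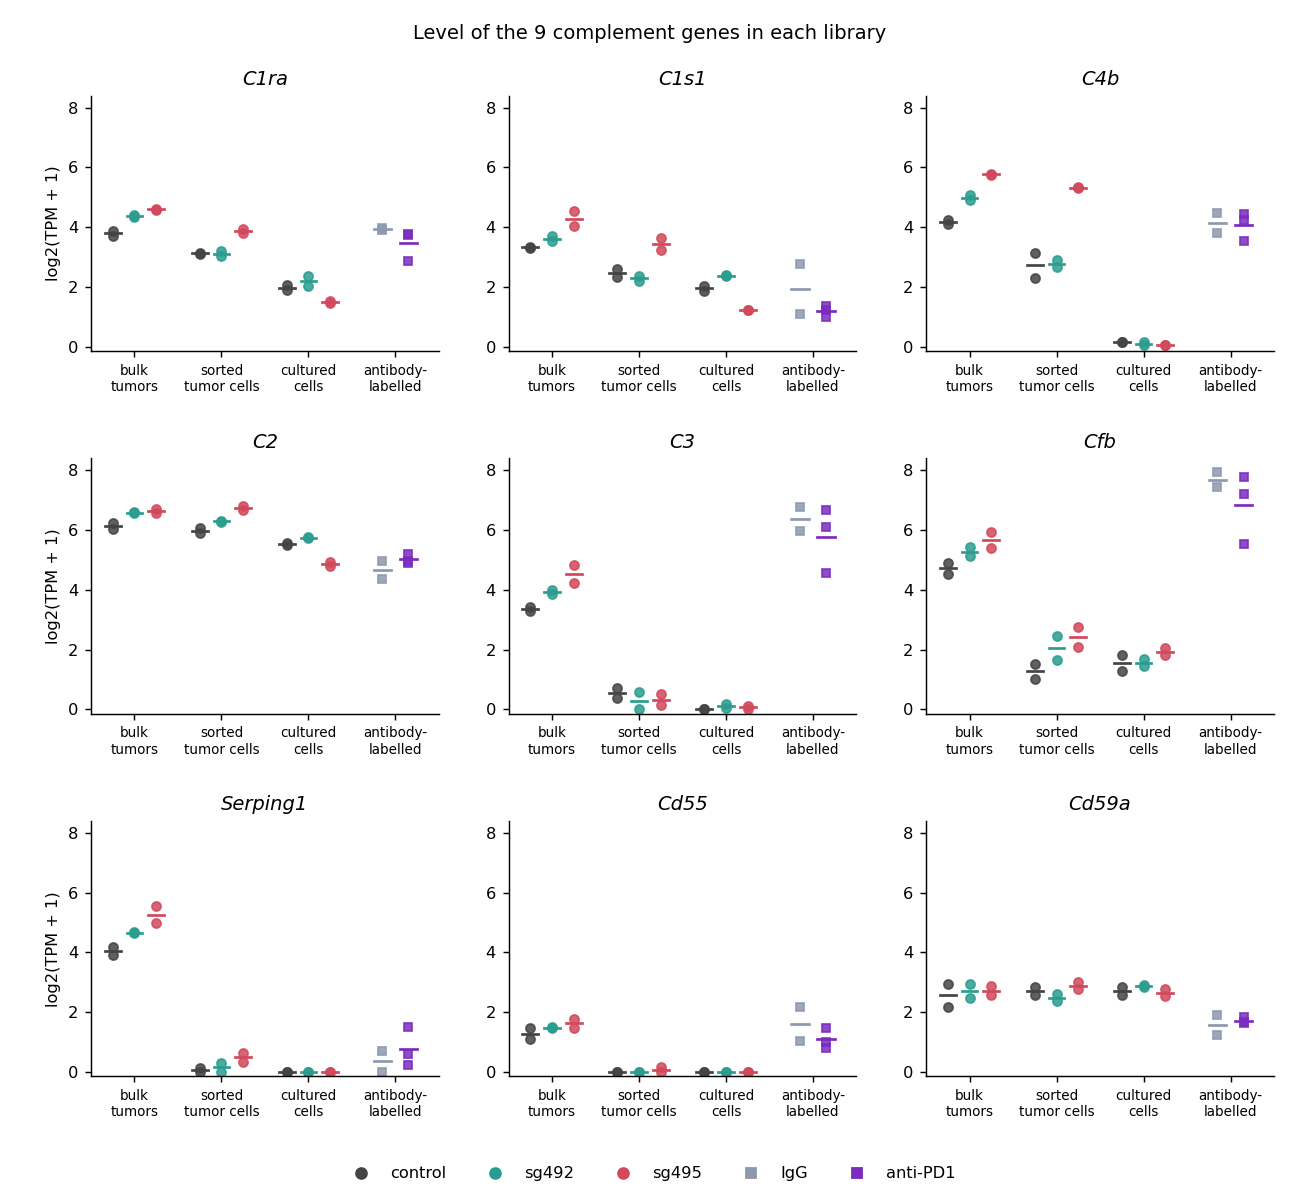
Level of each of the 9 genes as log2(TPM + 1), with 1 point per library and a bar at the group mean, for cultured cells, sorted tumor cells, bulk tumors (circles) and antibody-labelled libraries (squares). C4b is near 0 in cultured cells and separates sg495 from the other groups in sorted tumor cells. C3 and Cfb have their highest group means in the antibody-labelled libraries. There anti-PD1 replicate 1 (22.83 and 44.8 TPM) lies below bulk sg495 replicate 2 (27.27 and 60.48 TPM). Serping1 has 14.06 TPM or more in bulk tumors and at most 1.82 TPM elsewhere. Cd59a stays between 3.53 and 7.1 TPM in the 18 libraries of the 3 sample types.

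Control libraries of the 3 sample types were compared first, to describe how complement transcripts differed between cultured cells, sorted tumor cells and whole tumors. Only the sorted cells had been digested with collagenase and depleted of stromal cells, so handling and sample type cannot be told apart. Calls required both an adjusted p (Benjamini-Hochberg) under 0.05 and a change of 1.5-fold or more, in 1 limma model of all 18 libraries on log2(TPM + 1). Fold changes on this scale understate those of genes near or below 1 TPM. The genes were chosen with earlier results of these libraries known, so p-values of both comparisons of control libraries are not independent evidence. Between sorted and cultured control cells, 5 of the 23 tested complement genes were called higher and 1, Masp1, lower, beside 12.4% and 7.79% of all 13152 genes tested. The 23 genes had to average 1 TPM over all 18 libraries, which 10 of them reached in bulk tumors alone and Masp1 in cultured cells alone, so nothing is read from these counts. C4b, the thioester protein whose cleaved form tags surfaces, had 0.11 and 0.1 TPM in cultured cells and 7.84 and 3.95 TPM in sorted tumor cells. All sorted libraries thus lay far above all cultured ones, and the log2 fold change was 2.58 ± 0.199 (SE, n = 2 against 2, adjusted p = 1.10e-06). C1ra, the protease that activates C1s, had 3.16 and 2.72 TPM in culture and 7.79 and 7.65 TPM after sorting, or 1.15 ± 0.119 on the log2 scale (adjusted p = 1.19e-05). C2, the protease subunit of the classical convertase, had 46.67 and 44.27 TPM in culture and 65.67 and 58.28 TPM after sorting, and C1s1, the protease that cleaves C4 and C2, had 2.66 and 3.06 TPM and 4.02 and 5.06 TPM, in both cases without overlap. Their log2 fold changes of 0.44 ± 0.0829 (adjusted p = 0.00108) and 0.52 ± 0.174 (adjusted p = 0.0304) were below the 1.5-fold threshold. Cfb and Cd59a had log2 fold changes of −0.28 (adjusted p = 0.518) and 0.01 (adjusted p = 0.988), and C3, below 1 TPM in both sample types and not tested, of 0.53, or 2.41 with a pseudocount of 0.1 in place of 1. Among the other complement genes, Clu, a fluid-phase inhibitor of the terminal complex, rose by 1.57 (log2, adjusted p = 0.00116), Itgb2, the β chain of complement receptors 3 and 4, by 0.99 (adjusted p = 7.83e-05) and C8g by 0.75 (adjusted p = 0.0409). Masp1, a protease of the lectin pathway, had 22.2 and 18.22 TPM in cultured control cells and 0.13 and 0.11 TPM in sorted control cells, a log2 difference of −4.24 that is given without a test. The C8g call was lost in 4 of 8 alternatives, among them without cultured control replicate 1 (0.40) and without sorted control replicate 2 (0.55), and C1s1 passed the threshold without sorted control replicate 1 (0.65).

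Between bulk control tumors and sorted control cells, 16 of the 23 complement genes passed the threshold as higher in bulk and 0 as lower, beside 8.27% and 4.46% of all genes. Of the 16 genes, 10 averaged 1 TPM in bulk tumors alone and entered the fit only through them (C1qa, C1qb, C1qc, C3, C3ar1, C5ar1, Cfd, Itgam, Itgax and Serping1). The count is therefore no result, and these 10 genes are described without a test. In bulk tissue, fewer cells of a type and less RNA per cell cannot be told apart. Serping1 had 17.18 and 14.06 TPM in bulk control tumors and 0.09 and 0 TPM in sorted control cells, a log2 difference of 3.99. Cfb had 29.07 and 22.11 TPM in bulk and 1.04 and 1.84 TPM after sorting, a difference of 3.45 ± 0.314 on the log2 scale (SE, limma adjusted p = 4.67e-06). C3, the hub of all 3 complement pathways, had 9.72 and 8.68 TPM against 0.29 and 0.62 TPM, or 2.82 on the log2 scale. None of these groups overlapped. C4b was also higher in bulk, at 17.75 and 16.37 TPM, by 1.45 ± 0.199 on the log2 scale (adjusted p = 0.000162), and C1s1 and C1ra by 0.86 (adjusted p = 0.00283) and 0.67 (adjusted p = 0.00122). C2, with 74.15 and 65.1 TPM in bulk, and Cd59a, with 3.53 and 6.75 TPM, were not called, with log2 fold changes of 0.16 ± 0.0829 and −0.15 ± 0.240. The C1q chains, which form the recognition molecule of the classical pathway, showed the largest differences of the list: C1qb had 102.39 and 65.77 TPM in bulk tumors and 0 and 0.07 TPM in sorted cells (log2 difference 6.33), followed by C1qa at 6.08 and C1qc at 5.74. The log2 difference was 3.07 for C3ar1, the receptor for the C3a fragment. Cfp, which stabilizes the alternative convertase, was higher by 2.42 (adjusted p = 2.34e-06), and Itgb2, with 21.05 and 15.29 TPM in bulk and 7.05 and 7.06 TPM after sorting, by 1.23 (adjusted p = 1.84e-05). Macrophage markers moved the same way, with 362.41 and 291.42 summed TPM in bulk control and 5.51 and 4.14 in sorted control, as did fibroblast markers (396.66 and 333.69 against 3.04 and 1.19 TPM). In sorted control cells Adgre1 and Cd163 were listed at 0 in both libraries, and the most abundant macrophage marker was Cd68. The part of these cells in single genes was not tested.

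**Figure D2:**
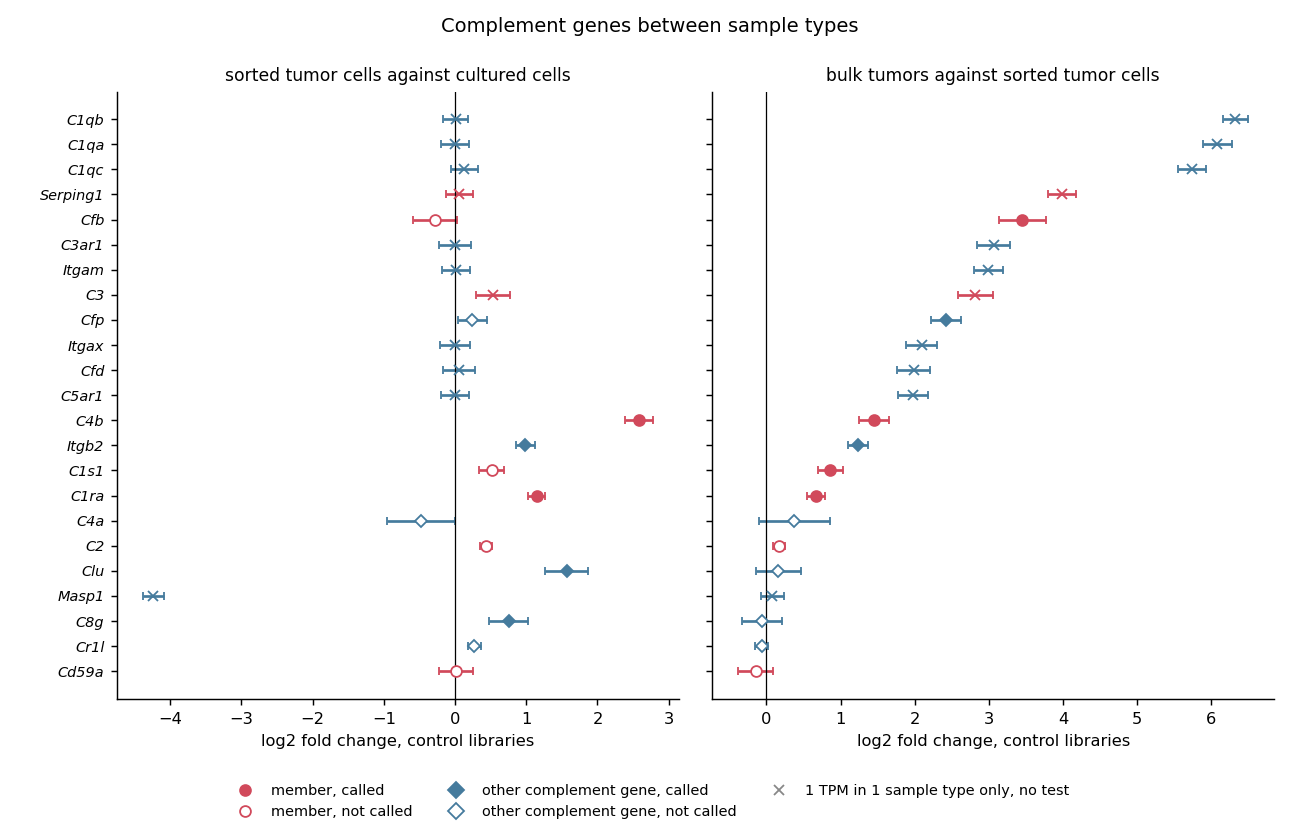
Log2 fold changes (x axis, with standard errors) of the 23 tested complement genes between control libraries, for sorted tumor cells against cultured cells (left) and bulk tumors against sorted tumor cells (right). Circles are the 9 genes where tested, diamonds other complement genes, filled symbols passed the threshold, and crosses mark the 11 genes that averaged 1 TPM in a single sample type, shown without a test. C4b and C1ra are filled and lie to the right of 0 in both panels, and Cfb is filled in the right panel and open in the left one.

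In sg495 bulk tumors all 9 genes had positive log2 fold changes against control. C4b had 17.75 and 16.37 TPM in control and 53.11 and 53.83 TPM with sg495, 3.02-fold on the fitted scale, or 1.59 ± 0.0911 (log2, SE, n = 2 against 2). Serping1 had 30.75 and 45.63 TPM with sg495, against 17.18 and 14.06 TPM (1.22 ± 0.192). C3 had 17.67 and 27.27 TPM, against 9.72 and 8.68 TPM (1.17 ± 0.200). The sg495 libraries lay above both controls for each of these genes, and those of C3 and Serping1 differed by about as much between themselves as the lower one did from control. C1s1, with 15.3 and 22.14 TPM against 8.95 and 9.11 TPM, and Cfb, with 41.38 and 60.48 TPM against 29.07 and 22.11 TPM, both had a log2 fold change of 0.95 (SE 0.180 and 0.218). C1ra, at 22.85 and 23.46 TPM against 13.66 and 12.09 TPM, had 0.80 ± 0.0988, and C2, at 103.52 and 92.93 TPM against 74.15 and 65.1 TPM, had 0.49 ± 0.0900. The membrane regulators were at the low end, with 0.34 ± 0.234 for Cd55 (1.77 and 2.44 TPM against 1.15 and 1.75 TPM) and 0.15 ± 0.299 for Cd59a (6.34 and 4.91 TPM against 3.53 and 6.75 TPM), whose groups overlapped. Of the 9 genes C4b was the only one past the threshold, beside 0.0293% of all 13639 genes tested; the genes were chosen with this comparison in view, and nothing is read from that count. C4b no longer passed without control replicate 2 or without either sg495 library, with log2 fold changes of 1.54 to 1.65 over the 4 omissions. The number of complement genes past the threshold was 6 without control replicate 1 and 12 with all 18 libraries in 1 model. Of the 16 other complement genes tested, none was called, 15 were above 0, and their median log2 fold change was 0.73, beside 0.0596 for all genes. At an unadjusted p below 0.05, 15.7% of all genes passed in this comparison. Itgb2 had 1.07 ± 0.154, and passed without control replicate 1 (1.29). Markers of leukocytes (84.73 and 63.5 TPM in control, 135.35 and 174.11 TPM with sg495), macrophages (362.41 and 291.42 against 534.82 and 579.07 TPM) and fibroblasts (396.66 and 333.69 against 543.1 and 947.8 TPM) were also higher with sg495, and endothelial markers were at 55.98 and 49.57 against 59.1 and 62.02 TPM. Their part in the complement values was not tested.

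In sg495 sorted tumor cells C4b reached 39.8 and 38.22 TPM, against 7.84 and 3.95 TPM in control, 6.05-fold on the fitted scale or 2.60 ± 0.271 (log2, SE, n = 2 against 2). C2 had 101.75 and 111.75 TPM, against 65.67 and 58.28 TPM (0.78 ± 0.0919). Both were past the threshold, beside 0.899% of all 12899 genes tested, from which nothing is read for genes chosen in this comparison. C4b no longer passed without either sg495 library (2.57 and 2.62) and C2 without any of the 4 libraries (0.69 to 0.86). With all 18 libraries in 1 model, 5 complement genes passed. C1s1 had 8.42 and 11.3 TPM against 4.02 and 5.06 TPM (0.96 ± 0.201), and C1ra 13.07 and 14.49 TPM against 7.79 and 7.65 TPM (0.76 ± 0.129). Cfb remained low, with 5.82 and 3.23 TPM against 1.04 and 1.84 TPM (1.16 ± 0.383). Each of these 5 genes had both sg495 libraries above both controls, as did Serping1 at low level, so 6 of the 9 genes beside 17.9% of all genes, from which again nothing is read. Cd59a had 5.78 and 7.1 TPM against 6.19 and 4.98 TPM (0.18 ± 0.190) with overlapping groups. C3, at 0.1 and 0.42 TPM with sg495 and 0.29 and 0.62 TPM in control, Serping1, at most 0.54 TPM, and Cd55, listed at 0 except for 0.11 TPM in 1 sg495 library, did not reach the mean of 1 TPM needed for the fit. None of the 7 other complement genes tested was called. Interferon-response genes, also listed with earlier results known, are given as a reference without a test: Irf1, a transcription factor, had 73.34 and 53.74 TPM against 6.4 and 2.91 TPM in control, and B2m, the light chain of MHC class I, had 1518.09 and 2086.41 TPM against 343.78 and 238.4 TPM. The C1q chains stayed at or below 0.31 TPM, but each was higher in both sg495 libraries than in both controls. C1qb had 0.3 and 0.31 TPM against 0 and 0.07 TPM, and C1qc 0.27 and 0.21 TPM against 0.06 and 0.13 TPM. Lyz2 was also higher (0.82 and 0.59 against 0.35 and 0.44 TPM), Mrc1 lower (0.04 and 0 against 0.1 and 0.08 TPM), and Cd163 at 0 in sg495 and control. The macrophage sum of 7.64 and 12.68 TPM against 5.51 and 4.14 TPM in control came almost wholly from Cd68 (6.76 and 12.09 TPM). Leukocyte markers summed to 2.45 and 2.57 TPM, against 1.88 and 1.38 TPM in control. The part of these cells in the C4b values was not tested.

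**Figure D3:**
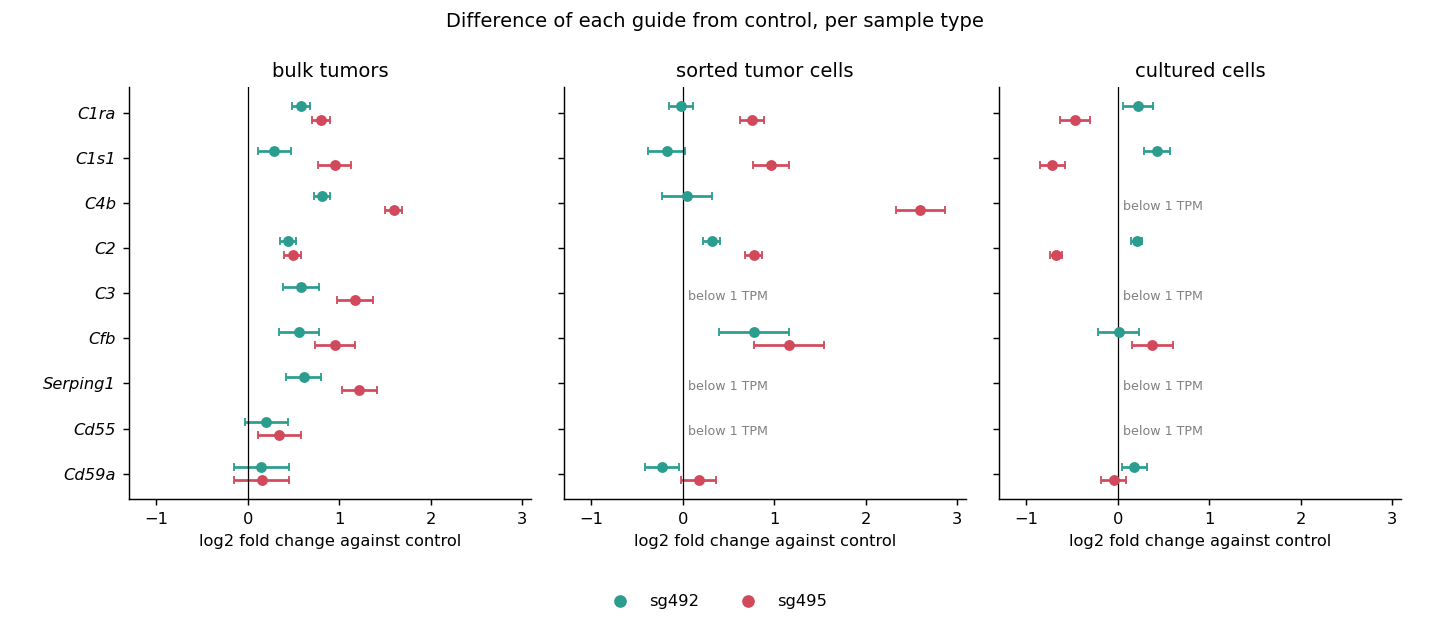
Log2 fold change against control (x axis, with standard errors) of each of the 9 genes for sg492 and sg495 in each of the 3 sample types; genes with a mean below 1 TPM in a sample type have no value. With sg495 the values of C1ra, C1s1 and C2 are above 0 in bulk tumors and sorted tumor cells and below 0 in cultured cells, and C4b has the highest value in both kinds of tumor sample.

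In cultured cells C2 and C1s1 were lower with sg495. Earlier results of these libraries too were known when the genes were chosen, so the p-values here and for sg495 against sg492, adjusted over all genes, are not independent evidence. With sg495, C2 had 29.37 and 26.91 TPM against 46.67 and 44.27 TPM in control, and fell by 0.67 on the log2 scale (SE 0.0620, limma adjusted p = 0.00317). C1s1 had 1.34 and 1.36 TPM against 2.66 and 3.06 TPM, and fell by 0.71 (SE 0.137, adjusted p = 0.0263). C1ra, with 1.9 and 1.78 TPM against 3.16 and 2.72 TPM, had a log2 fold change of −0.47 ± 0.163 (adjusted p = 0.125) without overlap of the groups. Cfb had 3.13 and 2.5 TPM against 1.44 and 2.5 TPM (0.38 ± 0.223, adjusted p = 0.327), and Cd59a 5.84 and 4.81 TPM against 6.13 and 4.93 TPM (−0.04 ± 0.140). C4b was listed at 0.04 and 0.03 TPM with sg495 and at 0.11 and 0.1 TPM in control, levels too low for a comparison. Of the 5 genes tested, 2 were called lower, beside 2.03% of all 12007 genes, and nothing is read from that count. Among the 6 other complement genes tested, Clu rose by 1.00 (SE 0.199, adjusted p = 0.0291), from 1.42 and 0.78 TPM to 3.05 and 3.26 TPM, beside 0.733% of all genes called higher. Masp1, at 25.23 and 26.71 TPM against 22.2 and 18.22 TPM, was not called. Of the interferon-response genes, Irf1 had 7.69 and 10.44 TPM with sg495 against 13.64 and 12.27 TPM. B2m had 195.92 and 188.46 TPM against 239.36 and 233.19 TPM, while Cxcl10 was higher, at 34.96 and 33.8 TPM against 22.89 and 22.57 TPM. In bulk tumors and sorted cells both sg495 libraries lay above both controls for each of these interferon-response genes. The C2 call held in all 10 alternatives (adjusted p from 0.000849 to 0.0353). C1s1 was no longer called when any of the 4 libraries was left out (adjusted p from 0.0710 to 0.119), and Clu when either sg495 library or control replicate 2 was left out (adjusted p from 0.0918 to 0.137).

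The difference between the sg495 effects in tumor cells and in culture was computed in the model of all 18 libraries. It contains the tumor contrasts that were known when the genes were chosen and is given without a test. The sg495 effect in sorted tumor cells minus that in cultured cells was 1.68 ± 0.247 for C1s1, 1.45 ± 0.117 for C2 and 1.23 ± 0.169 for C1ra (log2, SE). In bulk tumors minus cultured cells it was 1.67 for C1s1, 1.27 for C1ra and 1.17 for C2. Cd59a had 0.22 and 0.20. No difference is given for C4b, C3 and Serping1, which were at or near 0 in culture, so that it would only restate their values in tumors. The other complement genes were also listed with earlier results known, and their values are a description too. Of 15 of them, none passed the threshold between sorted and cultured cells, beside 2.51% of all genes, and Itgb2 alone passed in bulk tumors minus cultured cells (1.00 ± 0.186), beside 1.76% of all genes. Itgb2 no longer passed without bulk control replicate 2, bulk sg495 replicate 2 or any of the 4 cultured libraries (0.78 to 1.03).

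With sg492 no complement gene was called in any sample type. In bulk tumors no gene at all of 13639 was called by limma, or 0%, while 8.3% of all genes had an unadjusted p below 0.05. The sg492 and sg495 bulk tumors were compared with the same controls, so that a low control value raises both. C4b had 32.51 and 29.01 TPM in sg492 bulk tumors, between control and sg495, and its log2 fold change was 0.81 ± 0.0911 (unadjusted p = 9.19e-05, adjusted p = 0.481). Serping1 (24 and 24.55 TPM) had 0.61 ± 0.192, C1ra (19.31 and 20.32 TPM) 0.59 ± 0.0988, C3 (13.61 and 14.92 TPM) 0.58 ± 0.200, Cfb (33.91 and 42.21 TPM) 0.56 ± 0.218, C2 (95.56 and 93.73 TPM) 0.44 ± 0.0900 and C1s1 (10.5 and 12.08 TPM) 0.29 ± 0.180. All had adjusted p of at least 0.481. Both sg492 libraries were above both controls for 8 of the 9 genes, Cd59a being the exception, beside 31.1% of all 13639 genes. Summed markers in these libraries were 112.51 and 123.9 TPM for leukocytes (84.73 and 63.5 TPM in control), 408.08 and 492.43 TPM for macrophages (362.41 and 291.42 TPM), 452.42 and 542.18 TPM for fibroblasts (396.66 and 333.69 TPM) and 9.38 and 6.07 TPM for keratinocytes (0 and 1.34 TPM), each without overlap. Their part in the sg492 values was not tested. The wider list had a median log2 fold change of 0.49 over 25 genes, beside 0.0601 for all genes. In sorted cells labelled sg492, C4b had 5.3 and 6.42 TPM, within the range of control (0.05 ± 0.271, adjusted p = 0.986, 95% interval −0.61 to 0.71), and C2 had 77.96 and 76.93 TPM (0.32 ± 0.0919, adjusted p = 0.630). The background there was 0.0388% of genes called, and 7.13% had an unadjusted p below 0.05. In sg492 cultured cells C1s1 had 4.11 and 4.28 TPM (0.43 ± 0.137, adjusted p = 0.387), C2 had 53.07 and 52.25 TPM (0.21 ± 0.0620, adjusted p = 0.350) and C1ra had 4.11 and 3.12 TPM (0.22 ± 0.163, adjusted p = 0.667). For C2 and C1s1 both sg492 libraries thus lay above both controls, as for 27.2% of all genes, and both sg495 libraries below, as for 28.9%. The background was 0.05% of genes called and 10.5% with an unadjusted p below 0.05.

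The guides were also compared with each other. The controls do not enter these differences, but they enter the SE and the p-values through the shared fit. In cultured cells sg495 was lower than sg492 for C1s1 by a log2 difference of −1.14 ± 0.137 (limma adjusted p = 0.00682), for C2 by −0.88 ± 0.0620 (adjusted p = 0.00202) and for C1ra by −0.69 ± 0.163 (adjusted p = 0.0477), 3 of the 11 complement genes tested, beside 2.03% of all genes called lower. C2 kept this call in all 10 alternatives. C1ra lost it in 7 of 9, among them the omission of any of the 4 libraries (adjusted p from 0.0777 to 0.212), and C1s1 without sg492 replicate 1 (adjusted p = 0.0503) or without sg495 replicate 1 (adjusted p = 0.0522). In tumors the comparison shares its sg495 libraries with the choice of the genes and is a description: C4b was higher with sg495 by 2.55 ± 0.271 in sorted cells and by 0.78 ± 0.0911 in bulk tumors, where 0.589% and 0% of all genes were called. In order of level, C4b ran from sg495 bulk tumors (53.11 and 53.83 TPM) over sg495 sorted tumor cells (39.8 and 38.22 TPM) and sg492 bulk tumors (32.51 and 29.01 TPM) to control bulk tumors (17.75 and 16.37 TPM). The IgG libraries (21.2 and 12.87 TPM) and anti-PD1 libraries (10.54, 17.9 and 20.61 TPM) overlapped with control bulk tumors and with each other. Sorted control cells and sorted cells labelled sg492 followed without a gap between them, and cultured cells of every group came last at 0.03 to 0.11 TPM.

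Summed by role, the classes of the complement list differed between sample types. Recognition molecules and their proteases summed to 186.27 to 437.85 TPM in bulk tumors, mostly C1q, and to 12.35 to 27.95 TPM in sorted and 24.69 to 33.72 TPM in cultured cells, where Masp1 was the most abundant. Central components ran from 128.78 to 271.93 TPM in bulk tumors, 66.75 to 157.21 TPM in sorted cells and 30.85 to 57.26 TPM in cultured cells, with C2 contributing most in every library of these 3 sample types. Terminal components did not exceed 7.54 TPM anywhere. Membrane regulators were the steadiest class, between 45.15 and 78.2 TPM in all 23 libraries, owing to Cr1l, the rodent convertase inhibitor Crry, which had 39.26 to 71.66 TPM. Receptors summed to 32.45 to 90.81 TPM in bulk tumors, 5.71 to 9.24 TPM in sorted cells and at most 4.1 TPM in cultured cells.

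**Figure D4:**
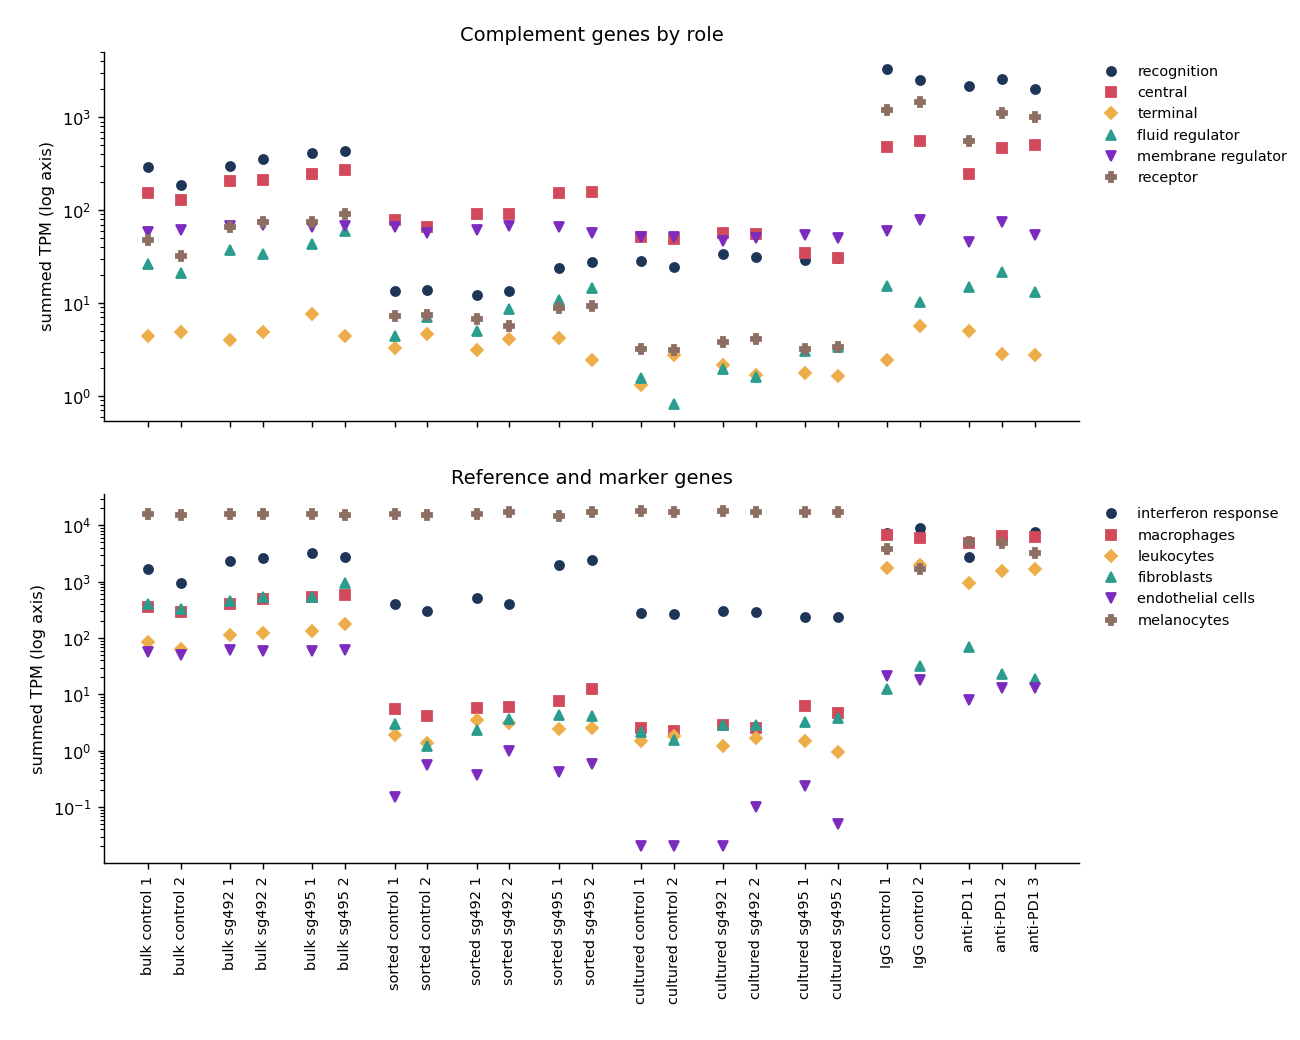
Summed TPM per library on a log axis, for complement genes by role (top) and for interferon-response genes and cell type markers (bottom). Recognition genes, receptors, macrophage markers and leukocyte markers are all far higher in bulk tumors than in sorted or cultured cells, membrane regulators stay between 45.15 and 78.2 TPM, and within sorted tumor cells central components and interferon-response genes are higher in both sg495 libraries.

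The antibody-labelled libraries differed in makeup from the others. Macrophage markers summed to between 4832.53 and 6864.3 TPM and leukocyte markers to between 943.67 and 1956.82 TPM, while melanocyte genes summed to 1662.86 to 5015.1 TPM. Cfb had 170.91 and 244.87 TPM with IgG and 44.8, 145.12 and 219.3 TPM with anti-PD1, and C3 had 61.03 and 107.21 TPM against 22.83, 67.67 and 100.25 TPM. The groups overlapped for both genes. Anti-PD1 replicate 1 was the lowest library in both, and it was also the lowest in Irf1 (57.57 TPM, against 190.78 to 327.1 TPM in the others), in leukocyte markers (943.67 TPM) and in T cell markers (11.75 TPM). The log2 fold changes were −0.85 ± 0.612 for Cfb (limma adjusted p = 0.639) and −0.58 ± 0.591 for C3 (adjusted p = 0.721), and over the omission of each library they ran from −1.33 to −0.20 for Cfb and from −1.02 to 0.025 for C3. The highest values were those without anti-PD1 replicate 1 and the lowest those without anti-PD1 replicate 3. C4b had 21.2 and 12.87 TPM against 10.54, 17.9 and 20.61 TPM (−0.07 ± 0.357), C1ra 14.1 and 14.56 TPM against 6.35, 12.48 and 12.31 TPM (−0.48 ± 0.334, adjusted p = 0.630), and C2 30.34 and 19.75 TPM against 30.46, 35.85 and 28.61 TPM (0.35 ± 0.259, adjusted p = 0.650). None of the 8 genes tested was called and none of all 13418 genes, or 0%, beside 7.18% with an unadjusted p below 0.05. The intervals are wide: the 95% interval of Cfb runs from −2.30 to 0.59 on the log2 scale. Serping1, at 0 to 1.82 TPM, was at most a small part of its level in bulk tumors, beside fibroblast markers of 12.55 to 68.64 TPM.

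**Figure D5:**
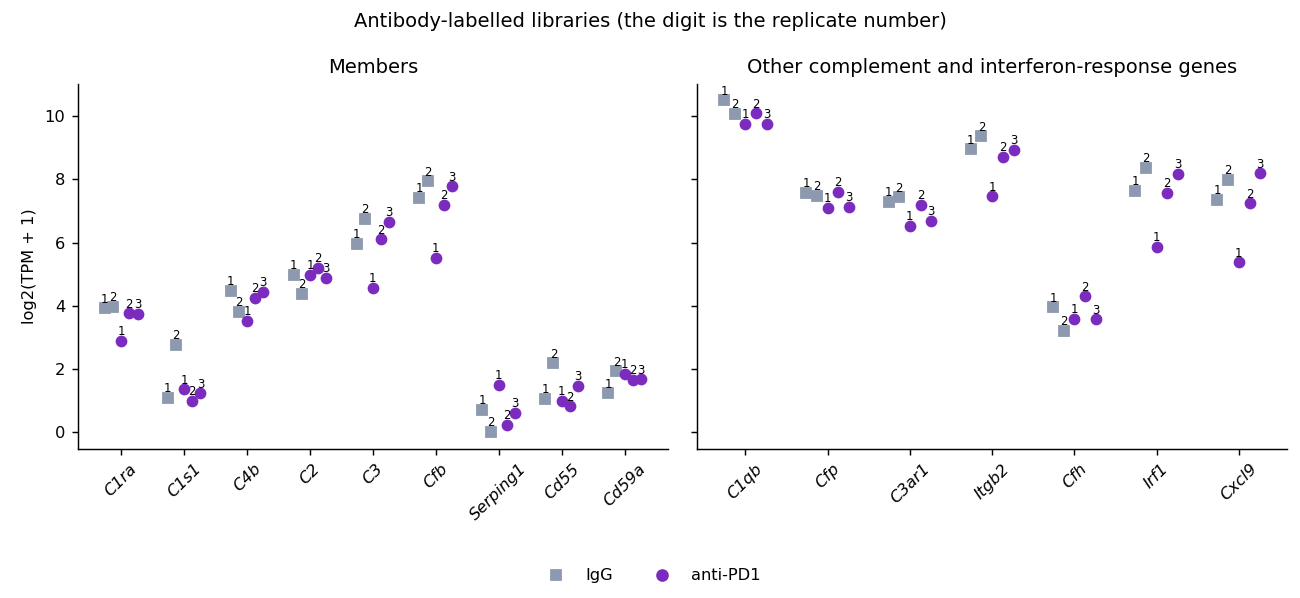
Level as log2(TPM + 1) in the 2 IgG (squares) and 3 anti-PD1 libraries (circles), with the replicate number beside each point, for the 9 genes (left) and other complement and interferon-response genes (right). The groups overlap for C3, Cfb and C4b, and anti-PD1 replicate 1 is the lowest library for C3, Cfb, C1ra, C4b, Irf1 and Cxcl9.

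Across all 23 libraries, each gene's pattern was compared with that of every gene averaging 1 TPM or more, by Pearson's r of log2(TPM + 1). Libraries of a group and of a sample type share their makeup, so these r are a description. Closest to C4b were C1ra (0.96) and the interferon-induced GTPases Tgtp1 (0.96) and Tgtp2 (0.94), and C4b was in turn closest to C1ra. Closest to Serping1 were Lox (0.99), Aspn (0.99) and Loxl1 (0.99), genes of the extracellular matrix, and its r with Col1a1 was 0.94. Closest to Cfb were Cxcl9, Serpina3g and Ifi204 (0.99 each), and closest to C3 were Ifi205, AW112010 and Ly6c2, with an r of 0.99 with the leukocyte gene Ptprc. C2 was closest to Asah2 (0.96) and Mgll (0.95), with an r of −0.38 with Ptprc, and Cd59a to Fbxo44 (0.92), with −0.77 with Ptprc. C1s1 had no neighbour above 0.86. After each library set's mean was subtracted, so that only differences within bulk, sorted, cultured and antibody-labelled libraries remained, C4b was closest to Erap1 (0.95), H2-Ab1 (0.94) and H2-Aa (0.94), genes of antigen processing and presentation, and C1ra to Lgals3bp (0.95). Cfb was then closest to Sema4a (0.93) and Socs1 (0.90), and C3 to Rap1gap2 (0.95), with an r with Ptprc of 0.89 for C3 and 0.77 for Cfb, against 0.42 for C4b. C2 was closest to Mgll (0.82), and Cd59a had no r above 0.67. Serping1 was again closest to Lox (0.89), but its r with Col1a1 fell to 0.47. Cd55 had a mean below 1 TPM and was not compared.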

How the data were processed

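Poly(A) RNA was read as single 75-base reads. Per the labels and the methods, the authors trimmed reads with cutadapt 2.3, aligned them with STAR 2.7.0d to mm10 with Ensembl genes and estimated expression with RSEM 1.3.1. The authors deposited TPM for 47643 genes in 23 libraries, each summing to the same total, so that a change in a few abundant genes shifts all others. No column was left out. Genes averaging 1 TPM or more were fitted as log2(TPM + 1) with limma 3.58.1 (R 4.3.3), within a sample type for guides and over 18 libraries for sample types, and p-values were Benjamini-Hochberg adjusted over all genes of a fit. An exact permutation test of 2 against 2 libraries cannot go below p = 0.333, nor of 2 against 3 below 0.2, so limma alone was used. The fit was also run on simulated data with changes larger than most seen here, in well-expressed genes, so it says nothing on smaller changes. Alternatives were another pseudocount (0.1), no filter, a filter at a mean of 5 TPM, median-of-ratios scaling, a replicate block, all 18 libraries in 1 model and each library left out. The genes and all lists (complement by role, interferon-response, cell type markers) were chosen with earlier results of these data known. Besides the 9 genes, list genes are named where called, where paralogs, or as the highest of their class, and for likeness the 3 closest genes. The interferon-response list leaves out 1 gene, which is not reported here.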

Additional observations from a re-analysis of the deposited data

Results flagged for a closer look

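With sg495, 5 complement genes shared 1 order (C1s1, C2, C1ra, C4a, Cfp), each reaching 1 TPM in at least 1 library of each sample type. Both sg495 libraries lay above both controls in tumors, whole and sorted, and below both in culture. The 5 genes were of 11 complement genes that reached 1 TPM in each sample type, and 2.19% of all 12261 such genes had this joint order. Nothing is read from the count, since the genes were chosen with earlier results known. The sg495 effect in sorted tumor cells minus that in cultured cells was 1.68 for C1s1, 1.45 for C2 and 1.23 for C1ra on the log2 scale, and in bulk tumors minus cultured cells it was 1.67 for C1s1, 1.27 for C1ra and 1.17 for C2. For these genes the difference was not tested, since its tumor side was known when they were chosen. For C4a the nearest sg495 and control values were 1.02 and 0.98 TPM in bulk tumors and 0.79 and 0.74 TPM in sorted cells. In culture they were 0.77 and 0.83 TPM, so the order of C4a is uncertain. C4a had differences of 1.38 (sorted tumor cells) and 1.03 (bulk tumors), at levels of at most 4.05 TPM. With single libraries left out they ran from 0.63 to 2.13 (sorted tumor cells) and from 0.43 to 1.64 (bulk tumors). Cfp, whose product stabilizes the alternative convertase, had differences of 0.83 (sorted tumor cells) and 1.16 (bulk tumors), and neither C4a nor Cfp passed the threshold in the limma model of all 18 libraries. Itgb2 differed between bulk tumors and cultured cells by 1.00, past that threshold, though the list was chosen with earlier results known, while leukocyte markers in bulk tumors went from 84.73 and 63.5 TPM in control to 135.35 and 174.11 TPM with sg495. Their part in the Itgb2 value was not tested.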

How the results depend on the processing

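Over 14 comparisons, the count of complement genes called stayed within 1.5 times in 110 of 145 alternatives. For sg495 in bulk tumors (1 gene) it was 0 without a filter, 0 with the replicate block, 12 with all 18 libraries in 1 model and 0 to 6 with a library left out. For sg495 in sorted tumor cells (2 genes) it was 0 without a filter, 1 with the block, 5 with all 18 libraries and 0 to 1 with a library left out. In cultured cells (3 genes) it was 1 without a filter, 1 at a mean of at least 5 TPM and 1 to 2 with a library left out. The sg495 effect in bulk tumors minus cultured cells had 6 genes, among them C4b and Serping1, which were at or near 0 in culture, and 3 to 10 with a library left out. For sg495 against sg492, with alternatives chosen after seeing the data, sorted cells (1 gene) had 0 without a filter, 3 with all 18 libraries and 0 with any library left out, and cultured cells (3 genes) had 1 at a mean of at least 5 TPM and 1 to 2 with a library left out. The sg492 comparisons had 0 in every alternative. Causes were not tested.

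Replicate numbers did not pair the libraries: deviations of same-numbered libraries correlated between −0.126 and 0.133. The replicate block gave 3 complement genes lower with anti-PD1 in place of 0, among them Cfb (−1.33, limma adjusted p = 0.00399), and 514 of all genes. C4b in sg495 bulk tumors, C2 in sg495 sorted cells, C1s1 in sg495 cultured cells, C8g in sorted against cultured cells and C1ra in sg495 against sg492 cultured cells were no longer called with the block. With the sg492 bulk libraries paired crosswise, chosen after seeing the data, 0 genes were called, as without.

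Leaving out single libraries changed the sign of values that were not called. Cd59a ran from −0.23 to 0.54 for sg495 in bulk tumors, from −0.18 to 0.088 for sg495 in cultured cells, from −0.24 to 0.54 for sg492 in bulk tumors, from −0.12 to 0.15 between sorted and cultured cells, from −0.53 to 0.24 between bulk and sorted, and from −0.19 to 0.58 for the bulk minus cultured difference (log2). C4b ran from −0.37 to 0.47 in sorted cells labelled sg492 and from −0.40 to 0.27 for anti-PD1, and C3 from −1.02 to 0.025 for anti-PD1. TPM carry no read totals, so the counting error of genes below 1 TPM is unknown.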
